A study of Mus musculus with 72 samples.

Results

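The stretch described here is the end of mouse chromosome 13, from 95 Mb to the last base of the chromosome in genome build mm9 (25.3 Mb, 0.952% of the assembled chromosomes), as seen by H3K27ac, p300, Brd3 and CEBPB ChIP-seq in mouse embryonic fibroblasts (MEFs). Its members are all MEF peaks of these 4 antibodies inside the stretch, merged per antibody over the 4 libraries wherever peaks overlapped by 1 bp or more. This gave 2286 merged sites of 170370 in the whole genome: 1344 H3K27ac sites, 147 p300 sites, 531 Brd3 sites and 264 CEBPB sites. Each site was then put in a class. A site was DKO-only where the DKO libraries both listed a peak and no WT library did, WT-only in the reverse case, and the rest were called in other combinations.

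WT cells (Hmgn1+/+n2+/+) and DKO cells (Hmgn1-/- n2-/-, lacking the nucleosome-binding proteins HMGN1 and HMGN2) were compared, both of strain C57BL/6. The series covers 3 cell types, MEFs, embryonic stem cells (ESCs) and resting B cells (rBs) from spleen, each with antibodies of its own and with 2 WT and 2 DKO libraries for each antibody used here. The study calls its MEF and ESC replicates biological, but no label says which animal, culture or line a library came from, so p-values below measure the spread between libraries, which in rBs may be technical. In these bulk libraries, binding in fewer cells and weaker binding per cell cannot be told apart.

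H3K27ac marks the nucleosomes of active promoters and enhancers. The acetyltransferase p300 places this mark at enhancers, and Brd3, a BET protein, carries bromodomains that read acetylated lysines. CEBPB is a basic leucine zipper factor of fibroblasts, fat cells and macrophages that binds DNA directly. The end of chromosome 13 holds 161 protein-coding genes in the annotation, among them integrin subunits (Itga1, Itga2), protease-activated receptors (F2r, the thrombin receptor, and its relatives), the PI3-kinase regulatory subunit Pik3r1, the kinase genes Map3k1 and Mast4, and the phosphodiesterase gene Pde4d.

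The stretch was selected on measured values: a few strong DKO-only sites of the MEF lists lie in it. The genotype contrast in MEFs is therefore given as a description with no test. It was proposed as a chromosome end marked by DKO-only sites, but for H3K27ac, which gave most of them, the rate of such sites lay near that of the genome, as given after the sequences. All 5 fibroblast marker genes examined (Col1a1, Col1a2, Col3a1, Postn and Prrx1) had an H3K27ac peak at the promoter in all 4 libraries. None of the 10 marker genes of B cells, T cells, leukocytes, epithelium and stem cells examined had one in any library.

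The MEF lists differ in length between genotypes. H3K27ac lists held 84760 to 84850 peaks in WT and 76968 to 77614 in DKO, and p300 lists 5398 to 7323 and 2974 to 3325. Brd3 lists held 31404 to 33072 peaks in WT and 8970 to 11549 in DKO, and CEBPB lists 14197 to 14692 and 4886 to 5328. The read depth of each library is unknown, because the lists carry no totals. A shorter DKO list leaves fewer peaks that can be DKO-only and more that can be WT-only, wherever in the genome they lie. With every library held to the same number of top peaks, the stretch had 73 DKO-only H3K27ac sites (5.71%, against 5.65% on the other chromosomes) and 69 WT-only ones (5.4%, against 4.57%). For p300 these were 4 (4.26%, against 4.67%) and 8 (8.51%, against 5.30%). For Brd3 they were 11 (6.40%, against 2.86%) and 13 (7.56%, against 7.32%), and for CEBPB 8 (7.14%, against 9.70%) and 6 (5.36%, against 10.4%).

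The sequences shown here belong to the sites on which the description turns: the DKO-only H3K27ac and CEBPB sites that rank first in the genome, a further DKO-only CEBPB site, and the 2 strongest WT-only CEBPB sites. They were read from the mm9 plus strand, 5′ to 3′. Capitals mark matches to TTGCNNAA, the core letters of a CEBPB site, or to TGACTCA, the AP-1 site, searched on both strands. The H3K27ac sequence is chr13:109083656-109083806, the 151 bases around the summit of the site near Depdc1b. The CEBPB sequences are 101 bases around each summit: chr13:113653268-113653368 in an intron of Ppap2a, chr13:116928616-116928716 between genes near Gm6404, chr13:120198024-120198124 beside the start of Nnt, and chr13:111636202-111636302 between genes, with Actbl2 as the nearest start.
H3K27ac DKO-only, Depdc1b: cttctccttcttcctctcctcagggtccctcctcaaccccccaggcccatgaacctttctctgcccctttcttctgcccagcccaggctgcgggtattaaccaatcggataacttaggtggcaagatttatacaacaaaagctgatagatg
CEBPB DKO-only, Ppap2a: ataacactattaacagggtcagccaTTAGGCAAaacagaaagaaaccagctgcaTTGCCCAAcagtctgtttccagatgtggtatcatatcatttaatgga
CEBPB DKO-only, Gm6404: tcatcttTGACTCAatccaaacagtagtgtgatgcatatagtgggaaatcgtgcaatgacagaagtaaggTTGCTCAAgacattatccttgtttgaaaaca
CEBPB WT-only, Nnt: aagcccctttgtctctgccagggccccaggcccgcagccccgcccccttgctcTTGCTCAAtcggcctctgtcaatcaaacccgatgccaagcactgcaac
CEBPB WT-only, Actbl2: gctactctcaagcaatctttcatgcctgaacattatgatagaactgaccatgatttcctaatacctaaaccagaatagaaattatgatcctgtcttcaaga

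Both DKO-only CEBPB sites and the WT-only site at Nnt hold the CEBPB core, whereas no match lies in the 101 bases of the WT-only site near Actbl2. In the Ppap2a sequence the core occurs 2 times, once on each strand. In the Gm6404 sequence 1 CEBPB core and 1 AP-1 site occur. G and C make up 63.4% of the Nnt sequence, 51.7% of the Depdc1b sequence and 39.6%, 37.6% and 35.6% of the Ppap2a, Gm6404 and Actbl2 sequences. A match describes letters only, and says nothing of whether a factor was bound through them.

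The DKO-only share of sites in the end of chromosome 13 was close to that elsewhere for H3K27ac in the full lists, and rested on 2 or fewer sites for each of the other antibodies. For H3K27ac, 66 of 1344 sites were DKO-only (4.91%, exact binomial 95% interval 3.82 to 6.21), against 5.06% in the rest of chromosome 13, 4.37% on the other chromosomes and 4.40% over all H3K27ac sites. The interval, which covers counting error only, takes in all 3 of the other values. The gap to the other chromosomes, 0.54 points, was 2.09 counting calls in either library (20.4% in the stretch) and 2.20 without DKO replicate 1 (15.2% in the stretch), the widest of the alternatives, and 0.07 with equal numbers of top peaks, the narrowest. For p300, 0 of 147 sites were DKO-only, which allows a share of up to 2.04%, where 0.632% of all p300 sites were. For Brd3, 1 of 531 sites was DKO-only (0.188%, interval 0.00477 to 1.04), against 0.0428% of all sites. For CEBPB, 2 of 264 were (0.758%, interval 0.0919 to 2.71), against 0.482% of all sites. Of the 82 DKO-only CEBPB sites of the genome, 24 lay on chromosome Y and 11 on chromosome X, and on the autosomes 0.284% of sites were DKO-only. The CEBPB lists held 12 and 16 peaks on chromosome Y in WT and 36 and 51 in DKO, whose part in the rates was not tested beyond leaving out both sex chromosomes. These rates come from the contrast on which the stretch was chosen and carry no test.

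WT-only sites were more numerous than DKO-only sites in the stretch for each of the 4 antibodies in the full lists, an order that turned for H3K27ac and CEBPB with equal numbers of top peaks, as given above. For H3K27ac it also turned without DKO replicate 1 (199 DKO-only and 125 WT-only sites) and without DKO replicate 2 (173 and 139). There a call in the 1 remaining DKO library is enough. For H3K27ac, 90 sites were WT-only (6.70%, interval 5.42 to 8.17; 5.83% of all sites). For p300, 29 sites were WT-only (19.7%, interval 13.6 to 27.1; 15.2% of all). For Brd3, 120 sites were WT-only (22.6%, interval 19.1 to 26.4), a value under the 27% of all Brd3 sites. The sign of the gap to the other chromosomes was not stable for Brd3 and p300. For Brd3 it was -4.45 points in the full lists, 3.07 without WT replicate 1, 2.60 counting calls in either library and 0.23 with equal numbers of top peaks. For p300 it was 4.72 points, -1.62 without WT replicate 2 and -3.28 counting calls in either library. For CEBPB, 85 sites were WT-only (32.2%, interval 26.6 to 38.2), under the 39.3% of all CEBPB sites.

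**Figure D1:**
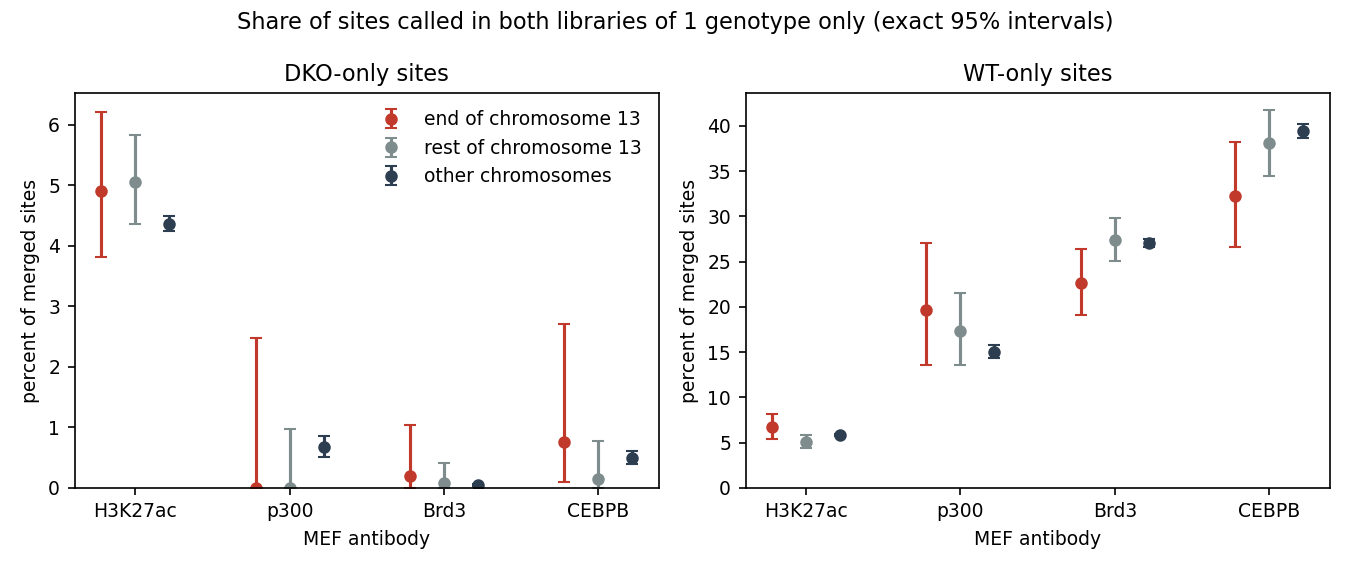
Percent of merged MEF sites that were DKO-only (left) and WT-only (right) for H3K27ac, p300, Brd3 and CEBPB in the end of chromosome 13, the rest of chromosome 13 and the other chromosomes; bars are exact binomial 95% intervals for counting error. The DKO-only share of H3K27ac sites is 4.91% in the end of the chromosome and 4.37% on the other chromosomes, and the WT-only shares of Brd3 and CEBPB are 22.6% and 32.2% against 27% and 39.4%.

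Sites just inside and outside the threshold at 95 Mb are given once. The last 3 H3K27ac sites before it were called in 1, 1 and 3 libraries, and the first 3 after it in 4, 1 and 4. None of these 6 sites was DKO-only or WT-only. The first CEBPB site inside, chr13:95068377-95068733, had −log10 q of 75.6 and 88.2 in WT and 17.1 and 26.4 in DKO. The last CEBPB site outside that all 4 libraries called, chr13:94924472-94924795, had 71.1 and 69.7 in WT and 24.2 and 30.7 in DKO. At these CEBPB sites on both sides of the threshold the WT values lay above the DKO values. The first 2 Brd3 sites inside and the last p300 site outside were WT-only.

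Along the chromosome in 5-Mb windows, the DKO-only share of H3K27ac sites was 10.6% in the last window before 95 Mb. It was 4.47%, 4.89%, 6.97%, 4.71% and 2.60% in the 5 windows that follow. Over 508 windows of the genome with at least 20 sites the median was 4.12%, the 90th percentile 8.17% and the highest 21.6%, so all 5 windows of the stretch lay under the 90th percentile. The window of 105 to 110 Mb, which holds the Depdc1b site, ranked 78th of 508. WT-only shares ran from 4.92% to 9.09% in the 5 windows, around a genome median of 5.71%, and the highest of them belonged to the last window, 115 to 120 Mb.

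**Figure D2:**
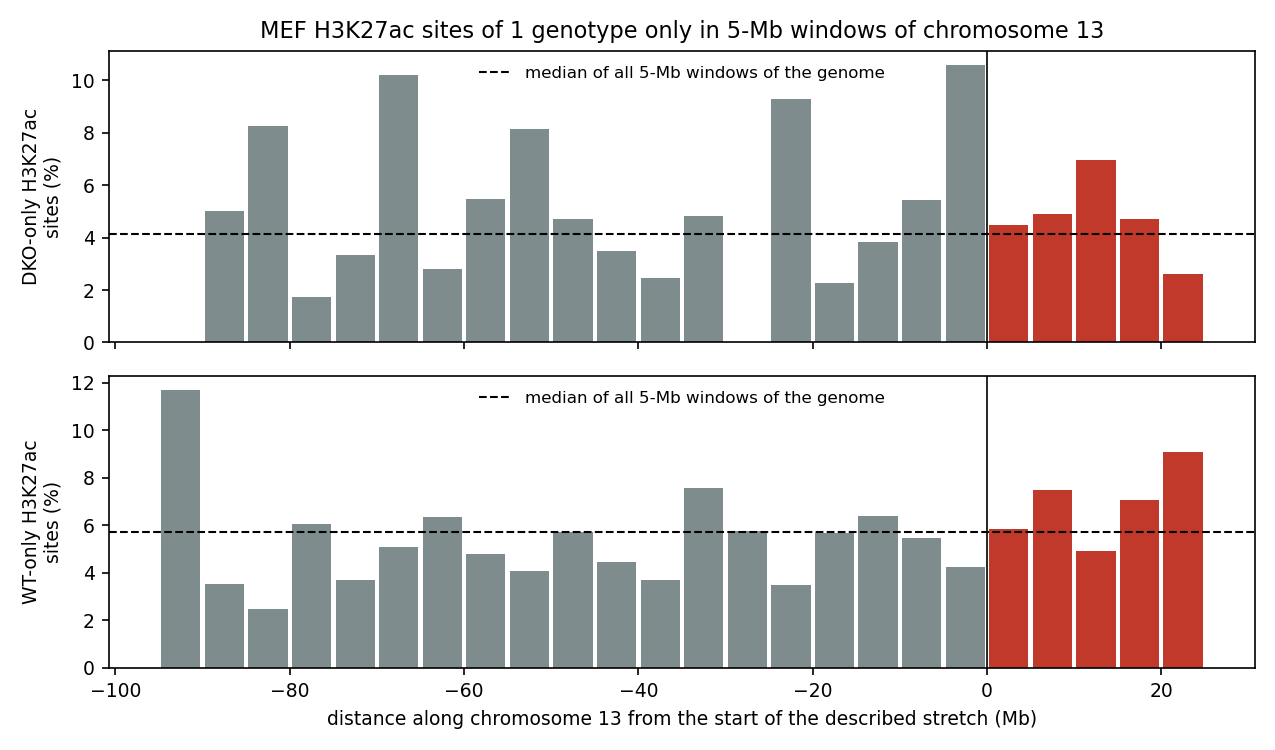
Percent of MEF H3K27ac sites that were DKO-only (top) and WT-only (bottom) in 5-Mb windows of chromosome 13, by distance from the start of the stretch in Mb; red windows lie in the stretch, grey ones before it, and the dashed line is the median of all windows of the genome. The red DKO-only bars run from 2.60% to 6.97%, below the 10.6% of the last grey window.

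What the stretch does hold is the first-ranked DKO-only site of 3 antibodies. Ordered by the mean −log10 q of both DKO libraries, the site near Depdc1b was 1st of 4593 DKO-only H3K27ac sites of the genome. The site in Ccdc125 was 1st of 17 DKO-only Brd3 sites, and the site in Ppap2a was 1st of 82 DKO-only CEBPB sites and 1st of the 47 on autosomes. These ranks are part of how the stretch was chosen.

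The first-ranked H3K27ac site, chr13:109082941-109084051, lies between genes, 22475 bp from the nearest start, that of Depdc1b, a DEP domain gene. Its −log10 q was 37.4 and 29.9 in DKO replicates 1 and 2, with fold enrichments of 12.1 and 10.1, and no peak was listed in either WT library. No p300, Brd3 or CEBPB peak overlapped it in any MEF library. Within 25 kb, the WT libraries listed 3 and 2 H3K27ac peaks and the DKO libraries 5 and 4. The highest of the WT peaks there reached 11.5 and 10.6, under both DKO values of the site itself. CEBPB and Brd3 within the same 25 kb were listed higher in WT, CEBPB at 11.2 and 18.4 against no peak in DKO.

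The same position was called in the rB libraries, which were not used to choose the stretch but have the same genotypes, and whether they share animals with the MEF libraries is not given. In rBs, the Ikaros lists held a site at chr13:109082906-109083790, over the H3K27ac site of the MEFs, with −log10 q of 28.9 and 21.3 and fold enrichments of 6.92 and 5.97 in the 2 DKO libraries. Neither WT library of rBs listed a peak. Ikaros (encoded by Ikzf1) is a zinc finger factor of lymphocytes, and this was the 3rd of its 16 DKO-only sites in the genome. The other Ikaros DKO-only site of the stretch, chr13:99696462-99696637, lay 123 bp from the start of Tnpo1, an import receptor gene, with 8.24 and 7.02 in DKO and no peak in WT. In all, 2 of 81 Ikaros sites of the stretch were DKO-only (2.47%, interval 0.300 to 8.64), against 0.140% of all Ikaros sites. With equal numbers of top peaks 3 of 41 were (7.32%, against 2.45% on the other chromosomes), with merging within 1000 bp 1 of 53 (1.89%, against 0.151%) and with a start at 100 Mb 1 of 69 (1.45%, against 0.127%). The WT Ikaros lists held 9102 and 10969 peaks and the DKO lists 5032 and 4838. None of the other rB antibodies had a DKO-only site in the stretch: 0 of 67 Ets1 sites, which allows up to 4.48% (0.103% of all), 0 of 15 Irf8 sites, which allows up to 20% (0.632% of all), and 0 of 3 Pax5 sites, while Oct2 had no site there. The 2 sites were singled out after their values were seen, and 2 against 2 libraries cannot give an exact two-sided permutation p below 0.333 for a single site. None of the 5 ESC antibodies had a peak over the Depdc1b site.

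The Brd3 site in Ccdc125, chr13:101439703-101439945, overlaps an exon 267 bp from the start of a coding transcript. Its −log10 q was 15.9 and 6.41 in DKO, with no peak in WT; the DKO libraries differ from each other by more than the weaker value. H3K27ac was called over this promoter in every library, at 11.5 and 3.55 in WT and 17.2 and 6.01 in DKO, where the genotypes overlap. Within 25 kb stands the strongest H3K27ac site of the whole stretch, over the shared promoter of Rad17, a checkpoint clamp loader, and Taf9, a TFIID subunit. Its −log10 q was 155 and 146 in WT and 244 and 228 in DKO, and its fold enrichment 35.9 and 39.7 against 49.6 and 46.5, so that the genotypes did not overlap. Brd3 over the same promoter had the opposite order. The Brd3 −log10 q there was 10.4 and 8.90 in WT, with no peak in DKO replicate 1 and 5.49 in DKO replicate 2.

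The first-ranked CEBPB site, chr13:113653197-113653448, lies in an intron of Ppap2a, which encodes a lipid phosphate phosphatase, 62066 bp from its start. Its −log10 q was 60.5 and 58.3 in DKO, with fold enrichments of 19.6 and 18.6, and no peak was listed in WT. The 2 DKO libraries were close to each other. No H3K27ac, p300 or Brd3 peak overlapped it, and it was the one CEBPB peak within 25 kb in either DKO library. At the promoter of the same gene, Brd3 showed the opposite class, as given below.

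The other DKO-only CEBPB site, chr13:116928563-116928771, between genes near Gm6404, had 13.8 and 27.9 in DKO and no peak in WT, the 10th of 82 in the genome and the 4th of 47 on autosomes. It too stood without H3K27ac, p300 or Brd3 peaks, here over 25 kb to each side. For comparison, 63.5% of the 74 CEBPB sites of the stretch that all 4 libraries called overlapped an H3K27ac peak, as did 43.5% of the 85 WT-only sites.

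The next DKO-only H3K27ac sites were fainter. In an intron of Mast4, a microtubule-associated serine/threonine kinase, chr13:103868096-103868496 had 10.7 and 18.4 (75th of 4593). Between genes, with the actin-like gene Actbl2 as the nearest start 300850 bp away, chr13:111744118-111744371 had 15.3 and 13.6 (80th). In an intron of Adamts6, a secreted metalloproteinase, chr13:105209988-105211068 had 12.7 and 15.5 (93rd). None of these 3 had a WT peak at the site itself. Within 25 kb of the Actbl2 site the WT libraries each listed 16 H3K27ac peaks, reaching −log10 q of 71.4 and 79.0. The DKO libraries listed 19 and 20 there, reaching 76.0 and 91.0. With merging within 1000 bp the Actbl2 site was no longer DKO-only. The strongest WT-only H3K27ac sites surpassed all 3 named here in mean −log10 q.

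Those were a pair of neighbours near Hspb3, a small heat shock protein gene of muscle. chr13:114476313-114476833 had −log10 q of 27.2 and 19.8 in WT (9th of 6084 WT-only sites) and chr13:114477027-114478110 had 26.4 and 16.1 (13th). They lie 22429 and 23143 bp from the Hspb3 start, between genes, and share a neighbourhood, so they are not independent of each other. Within 25 kb no DKO library listed an H3K27ac peak, and no p300, Brd3 or CEBPB peak was listed in either genotype.

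The strongest WT-only CEBPB site stands beside the start of Nnt, the nicotinamide nucleotide transhydrogenase of the inner mitochondrial membrane. This site, chr13:120197891-120198268, lies 87 bp from the start and was the 3rd of 6675 WT-only CEBPB sites. Its −log10 q was 98.9 and 122 in WT, with fold enrichments of 25.1 and 29.5, and no peak was listed in DKO. H3K27ac at the same place was listed in all 4 libraries, at 64.5 and 49.1 in WT and 49.6 and 85.8 in DKO. Brd3 was also listed in all 4, at 27.3 and 30.8 in WT and 14.8 and 12.1 in DKO. Of these 3 MEF antibodies, CEBPB alone was listed at the Nnt promoter in a single genotype. In ESCs, CTCF was called over this site in all 4 libraries (9.31 and 11.2 in WT, 9.84 and 13.4 in DKO). Nanog was called in both WT libraries alone (6.65 and 5.13) and Oct4 in both DKO libraries alone (6.79 and 10.7). On the other chromosomes 2.18% of Nanog sites were WT-only and 28.8% of Oct4 sites DKO-only. The Oct4 lists held 11140 and 12627 peaks in WT and 26742 and 30864 in DKO.

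The remaining named WT-only sites spread over the stretch. For CEBPB, chr13:111636109-111636490 (nearest start Actbl2) had 55.7 and 34.4 (116th of 6675). For Brd3, chr13:116509094-116509398, between genes with Gm6404 as the nearest start 434575 bp away, had 36.8 and 28.7 (11th of 10731), and no H3K27ac, p300 or CEBPB peak overlapped it in any MEF library. The Brd3 site over the Ppap2a promoter, chr13:113591035-113591513, had 22.1 and 23.5 in WT and none in DKO (116th), while H3K27ac there was called in all 4 libraries at 70.7 and 50.4 in WT and 47.5 and 29.3 in DKO. For p300, chr13:113993354-113993645, in an intron of the granzyme gene Gzmk, 6222 bp from the start of Esm1, had 13.3 and 22.6 (24th of 1393). A second p300 site, chr13:111821758-111822193 (nearest start Actbl2), had 11.4 and 23.0 (30th). At both p300 sites H3K27ac was called in all 4 libraries, between 7.35 and 21.3. With merging within 1000 bp the p300 site in Gzmk was no longer WT-only.

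**Figure D3:**
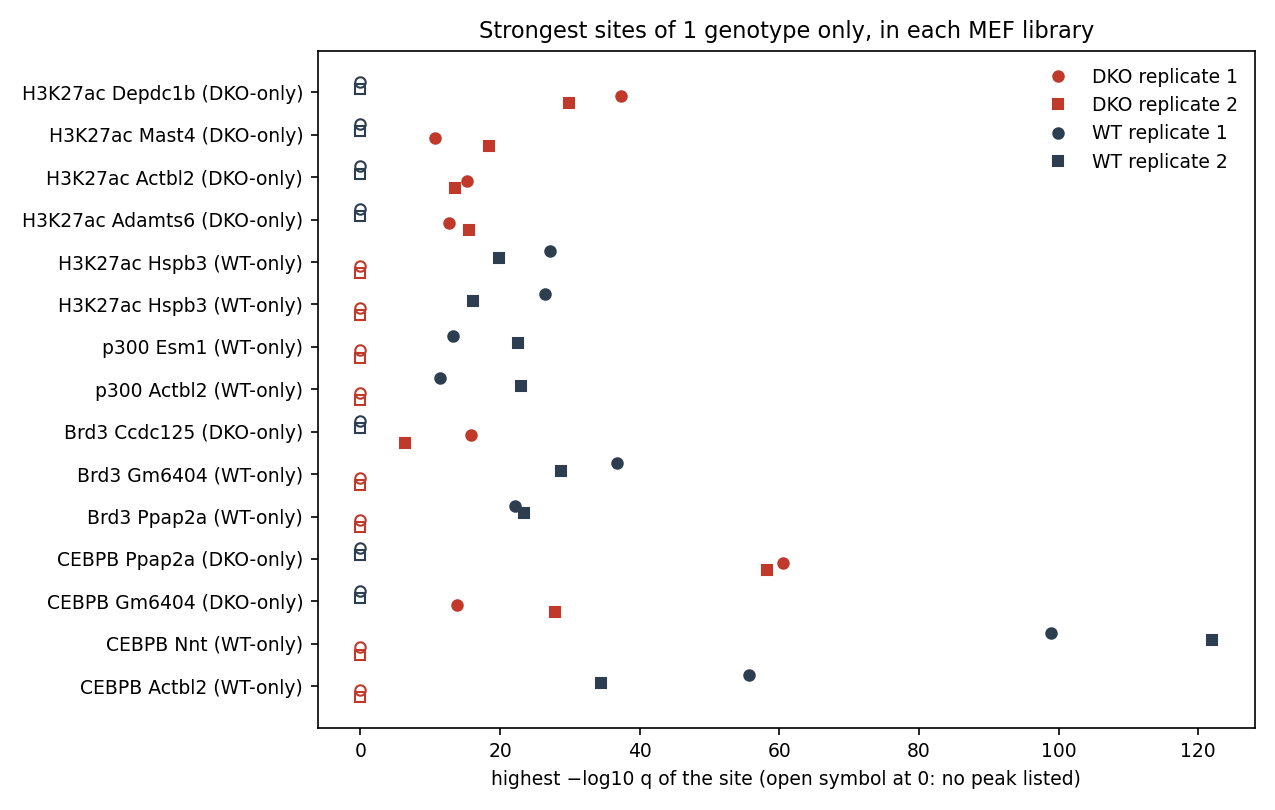
Highest −log10 q of each named MEF site in the 4 libraries, labelled by antibody, nearest transcript start and class; circles are replicate 1, squares replicate 2, dark symbols WT and red symbols DKO, and an open symbol at 0 means that no peak was listed. The CEBPB site at Nnt reaches 98.9 and 122 in WT and the CEBPB site in Ppap2a 60.5 and 58.3 in DKO, with nothing listed in the opposite genotype.

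H3K27ac sites of 1 genotype lay less often at transcript starts, and were fainter and narrower, than sites of all 4 libraries. The class rule limits how these contrasts can be read. A site that both libraries of a genotype missed tends to lie near the caller's limit, and merging peaks of more libraries widens a site. How much of the contrasts follows from the rule was not tested. Of the 66 DKO-only H3K27ac sites, 33 lay in introns, 32 between genes and 1 over an exon, and 1 reached within 1000 bp of a coding transcript start (1.52%, where 5.97% of DKO-only sites of the genome did). Of the 90 WT-only H3K27ac sites, 1 did as well (1.11%, against 8.60% of WT-only sites of the genome). Among the 485 H3K27ac sites that all 4 libraries called, 119 (24.5%) lay at a start, against 34.6% in the genome. The median of the mean −log10 q was 7.48 for DKO-only and 6.47 for WT-only sites, against 16 for sites of all 4 libraries, and median widths were 366, 360 and 931 bp. Within 1000 bp of an all-library site lay 31.8% of the DKO-only and 22.2% of the WT-only sites.

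Brd3 differed in that 34 of its 120 WT-only sites (28.3%, against 39.1% of WT-only Brd3 sites of the genome) lay at a start, and 97.5% overlapped an H3K27ac peak. No WT-only p300 site lay at a start, where 3.23% of those in the genome did, and 82.8% of its 29 WT-only sites overlapped H3K27ac. The CEBPB core lay within 100 bases of the summit at 136 of all 264 CEBPB sites of the stretch (51.5%), against 49.7% on the other chromosomes and 10.2% in windows of the same length 1000 bp away. By class it lay at both DKO-only sites, at 50.6% of WT-only sites and at 55.4% of sites of all 4 libraries. Of the 79 DKO-only CEBPB sites on other chromosomes, 24.1% held it, and of the 44 on other autosomes 34.1%. The AP-1 site, the binding motif of Fos and Jun dimers, lay at 42.2% of the p300 sites of the stretch and 37.9% of those on other chromosomes, against 18.2% of CEBPB, 4.02% of H3K27ac and 3.01% of Brd3 sites of the stretch.

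At sites called in all 4 libraries, the fold enrichment of DKO against WT followed the genome. Fold enrichment is the pileup over the local background that the peak caller assigned. Its log2 difference, each library centred on its median over all shared sites of the antibody, had a median of -0.02 over 485 H3K27ac sites of the stretch (quartiles -0.27 and 0.28), 0.05 over 35 p300 sites, 0.07 over 67 Brd3 sites and 0.10 over 74 CEBPB sites. On the other chromosomes the medians were 0.00, 0.00, 0.02 and 0.06. Without centring, the medians of the stretch were -0.10, -0.16, -0.35 and -0.63, and those of the other chromosomes -0.08, -0.21, -0.39 and -0.67, so the uncentred DKO values were lower for each antibody in the stretch as elsewhere.

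Pileup and background could be solved for H3K27ac, p300 and Brd3, where 100% of peaks gave a whole pileup after rounding, but not for CEBPB, where at most 6.94% did. The background under peaks of the stretch was 2.45 and 2.21 in WT and 2.78 and 3.11 in DKO for H3K27ac, in units of the caller's pileup. Against peaks elsewhere in the same library its ratio ran from 0.969 to 1.10 over the 12 libraries. The background in the stretch was thus close to that elsewhere in each library. At shared sites, centred log2 pileup in DKO against WT had a median of 0.01 for H3K27ac, 0.10 for p300 and -0.01 for Brd3, beside -0.01, 0.06 and 0.02 on the other chromosomes. The same difference in local background was -0.02, -0.01 and -0.13 in the stretch, beside -0.04, 0.04 and 0.03 on the other chromosomes.

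Of 43 genes listed in 5 groups, 41 lie in the stretch. Thbs4 lies outside it and Arhgef28 has no entry under that symbol. Within 1000 bp of these 41 genes lay 456 H3K27ac sites, of which 16 were DKO-only (3.51%, against 4.40% of all H3K27ac sites) and 27 WT-only (5.92%, against 5.83%). The same genes held 175 Brd3 sites (0 DKO-only and 38 WT-only, 21.7% against 27% of all), 39 p300 sites (0 DKO-only and 7 WT-only, 17.9% against 15.2% of all) and 50 CEBPB sites (1 DKO-only, 2% against 0.482% of all, and 9 WT-only, 18% against 39.3%). H3K27ac was called at the promoter in all 4 libraries in 32 of the 41 genes, beside 10687 of all 22232 protein-coding genes. Called in both DKO libraries were 78.0% of the 41 genes, against 49.0% of all. The H3K27ac fold enrichment at the 32 promoters was lower in DKO without overlap of the genotypes in 12 and higher in 3, where 37.7% and 17.3% of all 10687 such promoters of the genome were. For Brd3, 8 of 12 such promoters were lower and 1 higher (61.8% and 4.83% of all). The promoter values of single genes that follow are −log10 q, which can order the genotypes differently from fold enrichment. Brd3 was called at the promoter in both WT libraries in 28 genes (68.3%, against 39.5% of all 22232 protein-coding genes) and in both DKO libraries in 12 (29.3%, against 18.0%). In 7 genes each WT library listed it and no DKO library did (17.1%, against 11.6%), the WT lists of Brd3 being the longer ones throughout the genome.

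Among the 7 matrix, adhesion and secreted factor genes, Adamts6 held the most sites, 57 for H3K27ac with 5 DKO-only and 0 WT-only (4.40% and 5.83% of all sites). Its promoter had Brd3 at −log10 q of 11.0 and 10.6 in WT and 10.4 and 15.8 in DKO, where the genotypes overlap. By fold enrichment, 5.80 and 4.86 against 7.41 and 8.35, they did not, and this is the 1 Brd3 promoter counted as higher above. Fst, which encodes the activin antagonist follistatin, had promoter H3K27ac of 44.2 and 41.2 in WT and 22.2 and 12.1 in DKO, and Brd3 of 18.1 and 13.9 against 6.47 and 6.22, both without overlap. Itga1, the collagen-binding integrin subunit, had promoter H3K27ac of 75.2 and 50.2 against 63.4 and 58.8, and its promoter CEBPB (15.9 and 22.0) was listed in WT only. Emb, a cell adhesion gene, had promoter H3K27ac of 6.34 and 6.99 in WT and none in DKO, the only listed gene of that kind (1 of 41, 2.44%, against 0.724% of all genes).

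Of the 7 receptor genes, F2r (PAR1, the thrombin receptor) and F2rl1 (PAR2) carried H3K27ac at the promoter in all 4 libraries, at 63.4 and 45.0 in WT and 49.1 and 45.0 in DKO for F2r. The F2r fold enrichment there, 19.8 and 15.6 in WT and 10.9 and 9.77 in DKO, did not overlap. Brd3 at the F2r promoter was 21.1 and 16.7 in WT and 8.80 and 6.84 in DKO, without overlap. Il6st, the shared gp130 chain of the interleukin-6 family, held 3 H3K27ac sites, 1 of them WT-only, and none at the promoter. No MEF site lay at F2rl2 or Htr1a.

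The 9 signalling enzyme genes held 288 of the 456 H3K27ac sites. Pde4d, a cyclic AMP phosphodiesterase, had 113 H3K27ac sites, 3 DKO-only and 9 WT-only (4.40% and 5.83% of all sites), and 42 Brd3 sites, 9 WT-only (27% of all). Mast4 had 68 H3K27ac sites, 7 DKO-only and 6 WT-only, against the same shares of all sites. Pik3r1 carried both at the promoter in all 4 libraries, and H3K27ac was 47.5 and 51.7 in WT and 69.2 and 55.7 in DKO, and Brd3 30.8 and 18.6 against 12.1 and 18.8. By fold enrichment, 16.4 and 17.1 against 19.7 and 17, the genotypes overlapped for Pik3r1 H3K27ac. Plk2, a polo-like kinase, had H3K27ac of 104 and 86.9 in WT and 95.6 and 109 in DKO. At Mast4, Pde8b and Ppap2a promoters, Brd3 was listed in both WT libraries alone.

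All 10 genes of the cell cycle and RNA or transcription machinery group had promoter H3K27ac in all 4 libraries. Of all genes, 49.8% had it in both WT and 49.0% in both DKO libraries. None of the 30 H3K27ac sites near these 10 genes was DKO-only or WT-only (4.40% and 5.83% of all sites). Cdk7, the kinase of TFIIH, had 107 and 98.4 in WT and 105 and 98.3 in DKO, while its promoter Brd3 was 32.3 and 43.2 against 8.31 and 7.97. Btf3, a nascent-chain binding protein gene, had H3K27ac of 83.8 and 72.3 in WT and 117 and 99.7 in DKO without overlap, and Brd3 of 56.2 and 37.8 against 21.2 and 19.0. Bdp1, an RNA polymerase III initiation subunit, showed the opposite order in H3K27ac, with 63.3 and 56.8 in WT and 37.4 and 27.5 in DKO. Smn1, the survival motor neuron gene, had H3K27ac of 23.7 and 21.0 against 23.8 and 17.9, with overlap, and Brd3 of 27.4 and 30.9 in WT against 3.48 in DKO replicate 1 and no peak in replicate 2.

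All 8 mitochondrial and metabolic genes also had promoter H3K27ac in all 4 libraries (49.8% of all genes in both WT and 49.0% in both DKO libraries). Ndufs4, a complex I subunit, had 48.0 and 36.4 in WT and 45.7 and 42.9 in DKO, but fold enrichments of 14.5 and 12.6 against 11.4 and 10.9, which did not overlap. Brd3 was listed at the promoter in both WT libraries for all 8 (39.5% of all genes). In both DKO libraries it was listed for 4 of them (18.0% of all genes), Nnt, Ndufs4 and Mrps27 included, and in neither for 4 (11.6% of all genes), Ndufaf2, Mccc2 and Mrps30 included. At Mrps30, a mitochondrial ribosome subunit, Brd3 was 18.1 and 24.4 in WT, beside H3K27ac of 40.7 and 30.9 in WT and 41.1 and 54.9 in DKO.

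**Figure D4:**
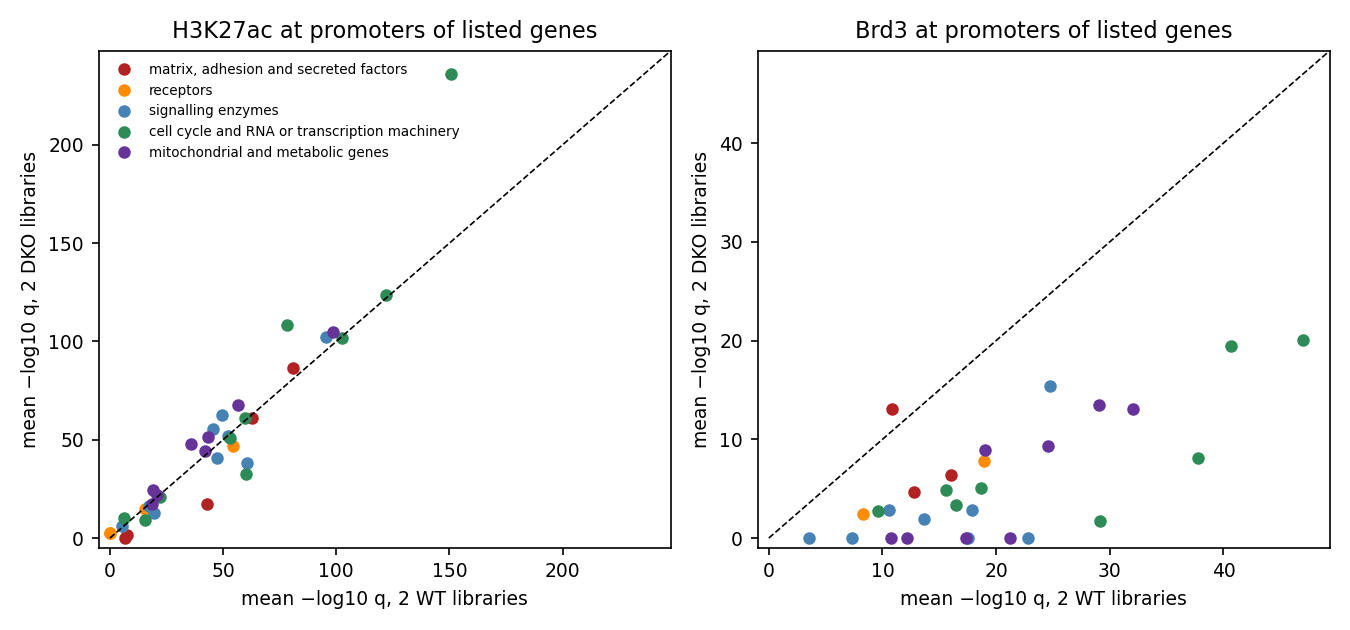
Mean −log10 q at the promoters of the listed genes in the 2 WT libraries (horizontal) and the 2 DKO libraries (vertical) for H3K27ac (left) and Brd3 (right), a library without a peak counted as 0; each point is a gene, coloured by group, and the dashed line marks equality. H3K27ac points lie on both sides of the line, with Taf9 at the top (by fold enrichment, 12 genes were lower in DKO without overlap and 3 higher), and the Brd3 points with a value above 0 lie below it except for Adamts6.

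ESC and rB libraries were not used to choose the stretch, and asked whether its sites differ there between genotypes. Sites called in all 4 libraries of an antibody were tested over the whole genome with limma on centred log2 fold enrichment, with Benjamini-Hochberg adjustment and a threshold of 0.05. In ESCs, 108 of 484 CTCF sites of the stretch were higher in DKO (22.3%, against 21.0% of all) and 112 lower (23.1%, against 23.6%). For Nanog, 60 of 457 were higher (13.1%, 11.5% of all) and 64 lower (14.0%, 12.9% of all). For Sox2, 7 of 80 were higher (8.75%, 10.7% of all) and 6 lower (7.50%, 13.1% of all). For Oct4, 11 of 115 were higher (9.57%, 16% of all) and 22 lower (19.1%, 20% of all). Without centring, 97 Oct4 sites of the stretch were higher (84.3%, 86.3% of all) and 4 lower (3.48%, 0.382% of all), and 28 Sox2 sites were higher (35%, 30.0% of all) and 0 lower (4.06% of all). For Klf4, 0 of 22 passed in either direction (3.94% and 3.46% of all), with 4 at an unadjusted p under 0.05 (18.2%, against 24.6% of all). With centring, the called shares stood near those of all sites for CTCF and Nanog, for Sox2 sites higher in DKO and for Oct4 sites lower in DKO. They were under them for Sox2 sites lower and Oct4 sites higher in DKO, on 6 and 11 sites. The 22 Klf4 sites are too few to set against shares of 3.94% and 3.46%. Over the 5 antibodies 186 sites were higher and 204 lower, which became 70 and 91 without DKO replicate 2, 78 and 96 without DKO replicate 1, and 19 and 27 on the log2 of −log10 p. None of these differences between areas was tested.

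In rBs fewer sites could be tested. For Ikaros, 1 of 24 was higher (7.52% of all) and 3 lower (6.23% of all), and without centring 0 were higher (0.310% of all) and 22 lower (91.7%, 79.8% of all). For Ets1, 2 of 14 were higher (9.56% of all) and 3 lower (9.29% of all), which became 0 (1.75% of all) and 9 (64.3%, 49.7% of all) without centring. For Irf8, 0 of 4 passed in either direction (15.8% and 8.37% of all), with 2 at an unadjusted p under 0.05 (38.1% of all). The 3 higher and 6 lower rB sites became 1 and 3 with quantile normalization, 0 and 0 on the log2 of −log10 p, and 1 or 2 in each direction without any one of the 4 libraries. Pax5 and Oct2 had no shared site in the stretch.

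The ESC sites with the lowest adjusted p were all Oct4 sites, Oct4 being the POU factor that maintains pluripotency. In an intron of Mast4, chr13:103851898-103852369 had fold enrichments of 8.99 and 10.5 in WT and 6.62 and 6.80 in DKO (log2 difference after centring -1.49, SE 0.13, limma adjusted p = 0.00150). Between genes near Gm5454, chr13:104153040-104153501 had 7.67 and 8.47 against 5.68 and 5.72 (-1.46, SE 0.13, limma adjusted p = 0.00150). In an intron of Cwc27, a spliceosome-associated gene, chr13:105469756-105470071 had 6.24 and 6.51 against 4.92 and 5.34 (-1.28, SE 0.13, limma adjusted p = 0.00185). At all 3 the deposited values were lower in both DKO libraries than in both WT libraries. Centring enlarges these differences, because uncentred Oct4 fold enrichment on the other chromosomes was higher in DKO by a median log2 difference of 0.93.

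In rBs the lowest adjusted p belonged to an Ets1 site in an intron of Cd180, a Toll-like receptor relative of B cells. chr13:103490313-103490584 had fold enrichments of 11.5 and 9.78 in WT and 3.39 and 3.92 in DKO (-0.98, SE 0.22, limma adjusted p = 0.00975). Far upstream of Map3k1, an Ikaros site, chr13:112773101-112774279, had 12.7 and 13.6 against 3.88 and 3.22 (-0.98, SE 0.18, limma adjusted p = 0.0154). An Ets1 site in the same interval, chr13:112726048-112726862, had 8.0 and 10.6 against 3.05 and 3.73 (-0.89, SE 0.23, limma adjusted p = 0.0165). At all 3 both DKO values lay below both WT values. Here centring reduces the differences, since the uncentred median on the other chromosomes was -0.91 for Ikaros and -0.57 for Ets1.

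ESC DKO-only sites of the stretch were 6 of 77 for Klf4 (7.79%, against 6.10% of all), 22 of 616 for CTCF (3.57%, 2.89% of all), 68 of 893 for Nanog (7.61%, 9.44% of all), 58 of 243 for Sox2 (23.9%, 16.6% of all) and 116 of 406 for Oct4 (28.6%, 28.8% of all). For Klf4 the gap to the other chromosomes turned, from 1.72 points to -2.19 at a −log10 q of at least 4, -2.03 at a fold enrichment of at least 4 and -1.74 with equal numbers of top peaks. The exact interval of the Sox2 share, 18.7 to 29.7, lay above the value of all sites. Its excess over the other chromosomes, 7.31 points, fell to 2.14 with equal numbers of top peaks and to 3.27 without DKO replicate 1. Sox2 lists were longer in DKO ESCs, with 16174 and 17144 peaks against 10324 and 10222.

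The share of a library's peaks that fell in the stretch was compared by limma over 10 antibodies. In ESCs no antibody passed, with adjusted p from 0.11 to 0.729. The Sox2 share was 1.02% and 1.13% in WT and 1.24% and 1.18% in DKO (log2 difference 0.17, 95% interval -0.05 to 0.40). In rBs, the Ikaros share was 0.692% and 0.684% in WT and 0.795% and 0.827% in DKO (0.24, SE 0.03, limma adjusted p = 0.0236). The Ets1 share was 1.13% and 1.12% against 1.23% and 1.28% (0.19, SE 0.03, limma adjusted p = 0.0236). The Irf8 share was 1.24% and 1.15% against 1.62% and 1.76% (0.55, SE 0.07, limma adjusted p = 0.0236). These calls rest on few peaks: 40 and 40 Ikaros peaks, 15 and 14 Ets1 peaks and 6 and 5 Irf8 peaks in DKO. For each of the 3 antibodies, the exact counting intervals of the WT and DKO libraries overlapped. Pax5 and Oct2 also passed, but DKO libraries of both had 0 peaks in the stretch, and their fitted differences come from the pseudocount and the list lengths, so no value is given. Without WT replicate 1, WT replicate 2 or DKO replicate 2 none of these 3 calls passed. With each library held to the same number of top peaks, the difference was -0.09 for Ets1, 0.00 for Irf8 and 0.28 for Ikaros. With a pseudocount of 5 it was 0.44 for Ets1, 0.85 for Irf8 and 0.30 for Ikaros. None of the Ikaros, Ets1 and Irf8 calls passed at a −log10 q of at least 4, with a start at 100 Mb or with replicate number as a block.

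**Figure D5:**
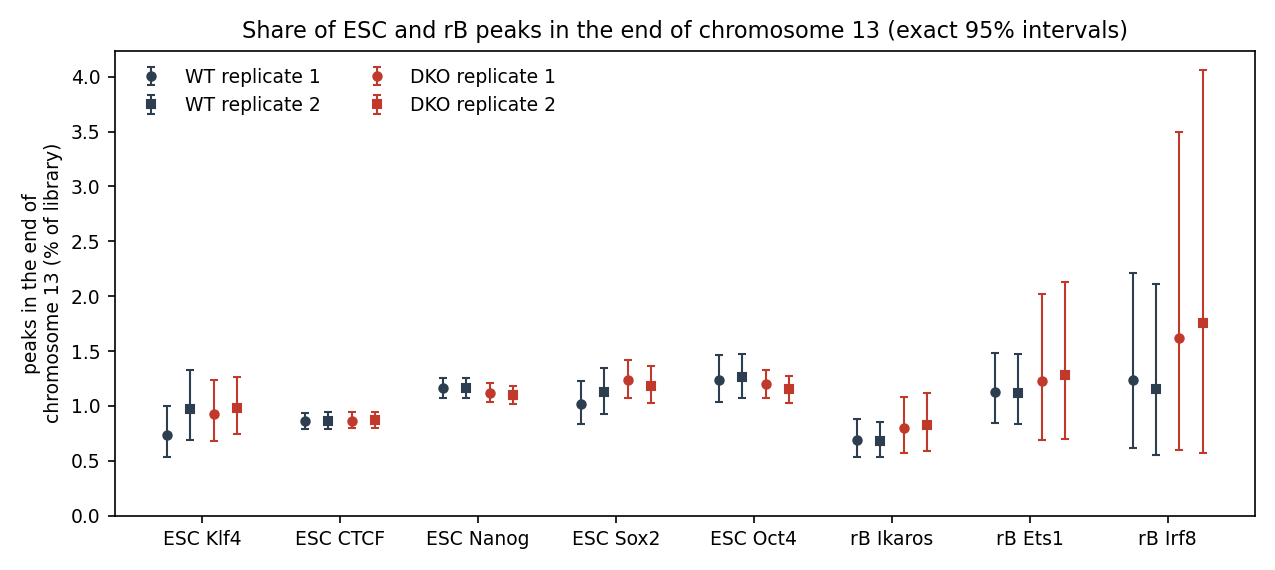
Percent of each library's peaks that lie in the end of chromosome 13 for 5 ESC and 3 rB antibodies; dark symbols are WT, red symbols DKO, circles replicate 1 and squares replicate 2, and bars are exact binomial 95% intervals for counting error. In each antibody the intervals of WT and DKO libraries overlap, and those of Irf8 DKO libraries reach 3.50% and 4.06%.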

How the data were processed

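H3K27ac, p300, Brd3 and CEBPB ChIP-seq in MEFs, Klf4, CTCF, Nanog, Sox2 and Oct4 in ESCs and Ikaros, Ets1, Irf8, Pax5 and Oct2 in rBs were analysed from 2 WT and 2 DKO libraries each, grouped by the labels. The authors aligned reads to mm9 with BWA, marked duplicates, removed reads in blacklisted regions and called peaks per library with MACS2 2.1.1.20160309, per the labels and the study's methods. Whether an input library set the local background is not given in the sources used here. Each deposited list gives a peak's fold enrichment (a ratio of pileup to local background), its −log10 p and −log10 q, and a display score that was not used. The lists hold no read totals, so the depth of each library is unknown, and a place without a peak is one below the caller's limit, not one without signal. MEF H3K27me3 and histone H1 lists were only counted.

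The members and lists were chosen with earlier results of these data known. Peaks were merged at 1 bp overlap and annotated with GENCODE vM1, with promoters reaching 1000 bp from a protein-coding transcript start. Intervals are exact binomial (Clopper-Pearson, 95%), and a count of 0 was allowed 3 counts. Pileup and background were solved from fold enrichment and −log10 p, and counted as whole within 0.0005 on the −log10 p scale, for peaks under a −log10 p of 300. Sites of all 4 libraries were fitted with limma 3.58.1 (R 4.3.3) on log2 fold enrichment, centred on each library's median, with no pseudocount. Shares of peaks were fitted as log2 with 0.5 added to the peaks in the stretch and 1 to the total, a step that sets the value where lists are short. Both used Benjamini-Hochberg adjustment at 0.05. The fit of sites was tested on simulated data, and the fit of shares was not. The 4 DKO-only and 2 WT-only sites per MEF antibody with the highest mean −log10 q were named, fewer where fewer exist, with 3 ESC and 3 rB sites of lowest adjusted p and the genes of 5 groups. Other genes and the strongest H3K27ac site were named after their values were seen. Python 3.11.15, pandas 2.3.3, scipy 1.17.1 and pysam 0.24.0 were used. Alternatives were stricter −log10 q or fold enrichment of at least 4, equal numbers of top peaks, merging within 1000 bp, calls in either library, starts at 90 or 100 Mb, autosomes only, a pseudocount of 5, other centring, a replicate block, and leaving out each library. Values of some listed genes are not reported here.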

Additional observations from a re-analysis of the deposited data

Results flagged for a closer look

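The MEF H3K27me3 lists, which no comparison above uses, held 5 peaks in the end of chromosome 13 in WT replicate 1 and 4 in WT replicate 2. They are given because data outside the main measurement listed more than the 3 peaks that a count of 0 allows. The DKO libraries held 3 and 1. As shares of each list these were 0.904% and 1.03% in WT and 1.41% and 0.855% in DKO, around the 0.952% of the assembled chromosomes that the stretch covers. So few peaks cannot decide whether the stretch holds more or fewer than that share. The whole lists held 553 and 388 peaks in WT and 213 and 117 in DKO, and no test of a difference was run.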

How the results depend on the processing

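Values here for MEF rates are the percent of sites in the end of chromosome 13 minus that on the other chromosomes, in points. Counting calls in either library of a genotype gave 2.09 for H3K27ac DKO-only (0.54 as reported), 2.34 for H3K27ac WT-only (0.86), -1.85 for p300 DKO-only (-0.67), -3.28 for p300 WT-only (4.72) and 2.60 for Brd3 WT-only (-4.45). Equal numbers of top peaks gave 3.54 for Brd3 DKO-only (0.15), 0.23 for Brd3 WT-only and -2.56 for CEBPB DKO-only (0.26). The WT-only order of p300 and Brd3 between areas therefore changed sign under these settings, and the cause was not tested. Leaving out each library in turn gave 0.88 to 2.20 for H3K27ac DKO-only, 0.74 to 2.69 for H3K27ac WT-only, -3.01 to 0.27 for p300 DKO-only, -1.62 to 4.81 for p300 WT-only, 0.03 to 0.62 for Brd3 DKO-only, -6.28 to 3.07 for Brd3 WT-only, 0.02 to 0.39 for CEBPB DKO-only and -7.64 to -5.49 for CEBPB WT-only. The lowest and highest Brd3 WT-only values came without DKO replicate 2 and without WT replicate 1.

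Median log2 fold enrichment at shared MEF sites without centring was -0.10 for H3K27ac, -0.16 for p300, -0.35 for Brd3 and -0.63 for CEBPB, and without each library it ran from -0.02 to 0.01, -0.02 to 0.14, -0.01 to 0.14 and 0.05 to 0.15. Of the 7 DKO-only and 8 WT-only named sites, all were kept under each alternative except merging within 1000 bp, which kept 6 and 7. Those lost were the DKO-only H3K27ac site near Actbl2 and the WT-only p300 site in Gzmk, near Esm1.

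ESC sites of the stretch numbered 186 higher and 204 lower as reported. Without centring there were 309 and 160. With sites above the median enrichment only there were 123 and 130, on the log2 of −log10 p 19 and 27, and without each library 70 to 155 and 91 to 156, lowest without DKO replicate 2 and, next, 78 and 96 without DKO replicate 1. The rB counts, 3 higher and 6 lower, became 0 and 32 without centring, 1 and 3 with quantile normalization, 0 and 0 on the log2 of −log10 p, 2 lower above the median enrichment, and 1 to 2 and 1 to 2 without each library. At shared ESC and rB sites, same-numbered libraries did not deviate together (correlations from -0.45 to 0.02, the lowest for Oct2 over 10 sites). This cannot show whether they were prepared or sequenced together. A replicate block gave 184 higher and 208 lower in ESCs and 1 and 3 in rBs.

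Of 10 antibodies, 5 passed with a higher fitted share of peaks in the stretch in DKO by limma, where the fitted values of Pax5 and Oct2 come from the pseudocount and not from a higher share. This became 0 at a −log10 q of at least 4, 0 with a start at 100 Mb, 0 with the replicate block, 1 with equal numbers of top peaks, and 0 to 4 without each library. With equal numbers of top peaks the Ets1 difference reversed to -0.09, that of Irf8 was 0.00, and 1 antibody, Nanog, was lower (-0.04). Adding a pseudocount of 5 changed no count by more than 1.5 times, but moved Ets1 from 0.19 to 0.44 and Irf8 from 0.55 to 0.85. The number of peaks limits these shares, and counting intervals were wider than the limma standard errors.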
